A study of Homo sapiens with 14 samples.

Results

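The genes for 9 transcription factors of the AP-1 and immediate early class, FOS, FOSB, FOSL1, FOSL2, JUN, JUNB, JUND, ATF3 and EGR1, were followed in 14 RNA-seq libraries of cultured human cancer cells. They were chosen with earlier results of these data known and were matched by their GENCODE symbols. All 9 were found among the 60683 gene identifiers of the count tables. The libraries formed 7 groups of 2. A549, a lung cancer line with an epithelial origin, was left untreated, was given 2 µM palbociclib, 0.5 µM indisulam or the combination of the same doses of both for 10 days, or was given 0.5 µM PF-06873600 for 7 days. SUM159, a triple negative breast cancer line, was left untreated or was given 0.5 µM PF-06873600 for 7 days. Palbociclib inhibits CDK4 and CDK6, the kinases that open the G1 to S transition. Indisulam is a sulfonamide that brings the splicing factor RBM39 to a ubiquitin ligase for degradation and that the study used to block CDK2 activation, and PF-06873600 is described as an inhibitor of CDK2, CDK4 and CDK6. The study asked whether loss of CDK2 activity together with CDK4 and CDK6 inhibition drives these cells into senescence. No gene had been edited in any of the 7 groups, each line is a single established culture model, and the labels did not say when untreated cells were harvested. The submitters called the 2 libraries of a group technical duplicates, so the p-values below measure the spread between such duplicates and not between independent cultures.

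AP-1 is a dimer of basic leucine zipper proteins. JUN, JUNB and JUND can pair with themselves or with FOS, FOSB, FOSL1 (FRA-1) and FOSL2 (FRA-2), whereas the FOS proteins need a JUN partner, and the dimers bind the palindrome TGAGTCA, also called the TRE. ATF3 is a stress-induced zipper protein that pairs with JUN proteins and prefers the related CRE, TGACGTCA. EGR1 is a zinc finger factor that shares the fast, growth factor driven induction of FOS but binds GC-rich DNA. Growth factors act on these genes through the RAS, RAF, MEK and ERK kinases and the SRF and ELK factors at CArG boxes, and stress acts through JNK and p38 on JUN and ATF3. In tissue culture FOS, FOSB and EGR1 mRNA rises and decays within a short time of a stimulus, while FOSL1, FOSL2 and JUND mRNA lasts longer.

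The DNA just upstream of 4 of these genes is shown because their mRNAs behaved differently below. JUN and FOS moved in opposite directions under the drug combination, JUND changed by little, and EGR1 differed most between the untreated lines. Each sequence is 5′ to 3′ on the gene's own strand, was taken from RefSeq (build GRCh38.p14), and ends at the base before the GENCODE start of the gene, and capitals mark the motifs searched for.
JUN, chr1:58784049-58784297, minus strand: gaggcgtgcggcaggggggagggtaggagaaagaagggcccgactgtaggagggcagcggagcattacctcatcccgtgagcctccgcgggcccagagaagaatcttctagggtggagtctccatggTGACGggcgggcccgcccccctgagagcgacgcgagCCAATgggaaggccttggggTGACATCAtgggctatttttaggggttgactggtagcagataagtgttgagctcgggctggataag
FOS, chr14:75278578-75278825, plus strand: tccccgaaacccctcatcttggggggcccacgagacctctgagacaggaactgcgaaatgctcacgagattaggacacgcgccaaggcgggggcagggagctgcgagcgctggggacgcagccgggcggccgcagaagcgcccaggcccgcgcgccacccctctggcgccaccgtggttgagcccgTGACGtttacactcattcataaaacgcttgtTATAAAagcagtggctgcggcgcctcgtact
JUND, chr19:18281623-18281872, minus strand: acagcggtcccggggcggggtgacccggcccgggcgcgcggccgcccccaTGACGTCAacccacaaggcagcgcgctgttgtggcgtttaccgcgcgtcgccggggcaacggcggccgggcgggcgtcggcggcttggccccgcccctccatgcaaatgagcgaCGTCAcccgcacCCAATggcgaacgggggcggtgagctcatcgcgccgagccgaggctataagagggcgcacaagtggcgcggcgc
EGR1, chr5:138465229-138465478, plus strand: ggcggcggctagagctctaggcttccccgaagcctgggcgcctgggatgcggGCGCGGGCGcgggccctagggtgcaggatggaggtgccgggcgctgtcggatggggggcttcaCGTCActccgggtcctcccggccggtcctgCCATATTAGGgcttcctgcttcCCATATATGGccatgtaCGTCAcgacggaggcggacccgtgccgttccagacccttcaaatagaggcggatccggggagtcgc

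The motifs were TGAGTCA or its reverse complement TGACTCA (TRE), TGACGTCA (CRE), TGACATCA (the TRE variant of JUN), TGACG (the core that a CRE also holds), the CArG box, GCGNGGGCG (an EGR1 motif), TATAAA on the sense strand, and CCAAT. All but TATAAA were searched on both strands, over windows of 300 bases that also reach 50 bases past the start. Positions below count from the RefSeq start. JUN held TGACATCA at −67 to −60, a motif found in 2.61% of 35116 RefSeq promoter windows. EGR1 held CArG boxes at −105 to −96 and at −83 to −74 and a GCGCGGGCG at −198 to −190, while 1.29% of the windows held any CArG box and 9.43% an EGR1 motif. JUND held a full CRE at −200 to −193, against 1.85% of windows. CCAAT, which 34.6% of windows held, stood in the JUN and JUND sequences, and where a TGACG core lies on the other strand it reads CGTCA, as in JUND and EGR1. In its window FOS held only the TGACG core at −64 to −60 (24.6% of windows) and TATAAA at −33 to −28 (7.33%). None of these 4 windows held the TRE, which 4.95% of windows did. DNA more than 250 bases upstream of the start was not searched, so a CArG box further upstream of FOS would not be seen. Among the windows not printed, that of FOSL2 held TGACTCA at +5 to +11 and one of the 2 windows of ATF3 held TGACATCA at −123 to −116. The promoter table matched 8 of the 9 genes, all but FOSL1. A match of letters is a description and not a bound site.

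Gene counts per library ranged from 13060374 to 21149256, and CPM, counts scaled to a common total, were taken over these gene counts, so that 3 counts, the smallest level treated as detected, correspond to 0.142 to 0.230 CPM. This precision covers counting error only. The chi-square of the 2 libraries of a group was 1.61 to 9.57 times its degrees of freedom over genes, more than counting noise gives, so none was a copy of another. It was largest in the untreated groups, the reference of each comparison with untreated cells, at 9.57 in A549 and 9.05 in SUM159. Among treated groups the highest was 5.04, with palbociclib. Untreated A549 held all 4 epithelial markers (EPCAM, CDH1, KRT8, KRT18; summed level 4469 to 5174 CPM) but none of 5 alveolar markers reached 1 CPM, and SFTPA1 and SFTPB were at 0 in every untreated library of the line. Untreated SUM159 held 2 of the 4 epithelial markers at 1 CPM or more (CDH1 at 0.0905 CPM on average) and all 4 mesenchymal markers, with a summed level of 7333 to 7776 CPM. Untreated A549 also held all 4 mesenchymal markers, at a lower summed level of 2250 to 2482 CPM. Some marker lists moved with treatment. The fibroblast list summed to 1.97 to 2.00 CPM in untreated A549 and to 82.1 to 83.5 CPM with the combination, through COL1A1 (1.92 to 73.6 CPM on average) and LUM (0.034 to 8.94 CPM), while COL1A2 and DCN averaged 0.0322 and 0.232 CPM. The epithelial list summed to 9419 to 9856 CPM with the combination and to 11175 to 11253 CPM with PF-06873600. KRT8 and KRT18 carried this rise, and the other markers of the list went down. CDH1 averaged 155.9 CPM in untreated A549, 127.9 CPM with the combination and 95.6 CPM with PF-06873600, and EPCAM 19.4, 14.5 and 8.04 CPM. The mesenchymal list of A549 summed to 3682 to 3727 CPM with the combination and to 3016 to 3153 CPM with PF-06873600. In SUM159 the fibroblast list went from 1695 to 1791 CPM up to 4055 to 4220 CPM with PF-06873600. The mesenchymal list there summed to 17569 to 17680 CPM with the drug, with FN1 going from 3146 to 13737 CPM and VIM from 4162 to 3609 CPM. The part of these shifts in the results below was not tested, and in bulk RNA a change in the share of cells that express a gene cannot be told apart from a change in RNA per cell.

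JUN, the founding AP-1 subunit and the main target of JNK, spans chr1:58776845-58784048 on the minus strand (ENSG00000177606; coordinates here and below are GENCODE 44, GRCh38). Its level was 7.14 and 6.53 CPM in untreated A549, 16.3 and 13.7 CPM with palbociclib, 38.6 and 40.4 CPM with indisulam, 116.6 and 126.3 CPM with the combination, and 85.6 and 82.4 CPM with PF-06873600. In SUM159 it was 67.7 and 64.5 CPM untreated and 93.2 and 96.8 CPM with PF-06873600. All 7 groups were separate from their neighbours in order, from the A549 combination at the top to untreated A549 at the bottom, and untreated SUM159 lay above indisulam-treated A549.

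JUNB, a weaker activator that can oppose JUN, spans chr19:12791486-12793315 on the plus strand (ENSG00000171223). Its level was 41.9 and 25.9 CPM in untreated A549, 38.9 and 36.2 CPM with palbociclib, 57.4 and 60.5 CPM with indisulam, 81.5 and 78.8 CPM with the combination, and 36.8 and 40.7 CPM with PF-06873600. It was 56.5 and 52.9 CPM in untreated SUM159 and 68.6 and 80.4 CPM with PF-06873600. The untreated A549 duplicates stood far apart, so the untreated, palbociclib and PF-06873600 groups of A549 overlapped. JUNB overlaps HOOK2 on the opposite strand, a gene that also went from 8.36 to 16.7 CPM between untreated and combination-treated A549. The library kit kept strand, but whether the counting used it was not given in the sources used here, and the part of HOOK2 reads in the JUNB value was not tested.

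JUND, the JUN protein present in most resting cells, spans chr19:18279694-18281622 on the minus strand (ENSG00000130522). Its level was 47.2 and 38.4 CPM in untreated A549, 42.7 and 40.0 CPM with palbociclib, 40.3 and 47.4 CPM with indisulam, 60.5 and 54.3 CPM with the combination, and 53.2 and 53.1 CPM with PF-06873600. In SUM159 the values were 41.4 and 36.4 CPM untreated and 40.0 and 41.6 CPM with PF-06873600. Only the combination and PF-06873600 groups of A549 stood apart from the 5 groups below them, whose ranges each overlapped that of the next.

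FOSL1, the FOS relative tied to RAS and ERK activity in carcinoma, spans chr11:65892049-65900573 on the minus strand (ENSG00000175592). It was at 7.61 and 8.73 CPM in untreated A549, 13.5 and 11.5 CPM with palbociclib, 27.7 and 31.1 CPM with indisulam, 41.7 and 42.2 CPM with the combination, and 60.3 and 60.2 CPM with PF-06873600. SUM159 held 215.8 and 195.0 CPM untreated and 149.1 and 144.2 CPM with PF-06873600. All 7 groups were separate, both SUM159 groups lay above every A549 group, and the drug lowered FOSL1 in one line and raised it in the other.

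FOSL2, the longer-lived FRA-2, spans chr2:28392448-28417317 on the plus strand (ENSG00000075426). Its level was 82.2 and 85.9 CPM in untreated A549, 136.8 and 125.0 CPM with palbociclib, 220.7 and 222.9 CPM with indisulam, 318.5 and 340.3 CPM with the combination, and 234.8 and 239.0 CPM with PF-06873600. It was 168.1 and 158.0 CPM in untreated SUM159 and 214.7 and 215.5 CPM with PF-06873600. The 7 groups were again separate from their neighbours. FOSL2 shares bases with FOSL2-AS1 and ENSG00000270640, whose highest counts in any library were 14 and 1.

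FOS, the prototype immediate early gene, spans chr14:75278826-75282230 on the plus strand (ENSG00000170345). It was low throughout, at 3.67 and 3.73 CPM in untreated A549, 4.01 and 3.29 CPM with palbociclib, 4.49 and 4.23 CPM with indisulam, 1.28 and 1.61 CPM with the combination, and 2.07 and 1.61 CPM with PF-06873600. In SUM159 it was 1.69 and 1.57 CPM untreated and 3.62 and 4.54 CPM with PF-06873600. The groups fell into a higher set of 4 and a lower set of 3, and PF-06873600 moved the 2 lines across that gap in opposite directions.

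FOSB, a FOS relative with its own strong activation domain, spans chr19:45467995-45475179 on the plus strand (ENSG00000125740). Its level was 0.14 and 0.20 CPM in untreated A549 and 0.07 and 0.31 CPM with palbociclib, at or near the limit of 3 counts. It was 2.14 and 2.44 CPM with indisulam, 2.69 and 3.35 CPM with the combination, and 1.07 and 1.05 CPM with PF-06873600. In SUM159 it was 1.45 and 1.5 CPM untreated and 3.22 and 2.88 CPM with PF-06873600. The untreated and palbociclib groups of A549 overlapped, and every other group lay above them. FOSB overlaps ERCC1 on the opposite strand, which went from 94.1 CPM in untreated A549 to 63.5 CPM with the combination and 61.3 CPM with PF-06873600, and from 72.1 to 108 CPM in SUM159 with PF-06873600. The part of ERCC1 reads in the FOSB value was not tested.

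ATF3, the stress-induced partner of JUN, spans chr1:212565334-212620777 on the plus strand (ENSG00000162772). Its level was 9.52 and 9.87 CPM in untreated A549, 6.83 and 6.65 CPM with palbociclib, 18.2 and 18.1 CPM with indisulam, 55.8 and 59.5 CPM with the combination, and 9.57 and 11.7 CPM with PF-06873600. SUM159 held 2.47 and 2.13 CPM untreated and 2.40 and 3.55 CPM with PF-06873600. The combination stood far above the other groups, and PF-06873600 overlapped untreated cells in both lines.

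EGR1, the zinc finger factor of the set, spans chr5:138465479-138469303 on the plus strand (ENSG00000120738). It was at 0.61 and 0.87 CPM in untreated A549, 0.82 and 0.49 CPM with palbociclib, 3.04 and 1.65 CPM with indisulam, 2.27 and 2.83 CPM with the combination, and 0.38 and 0.93 CPM with PF-06873600. SUM159 held 37.0 and 33.4 CPM untreated and 16.8 and 15.2 CPM with PF-06873600. Both SUM159 groups lay above every A549 library, and within A549 the indisulam and combination groups overlapped each other and lay above the other 3.

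**Figure D1:**
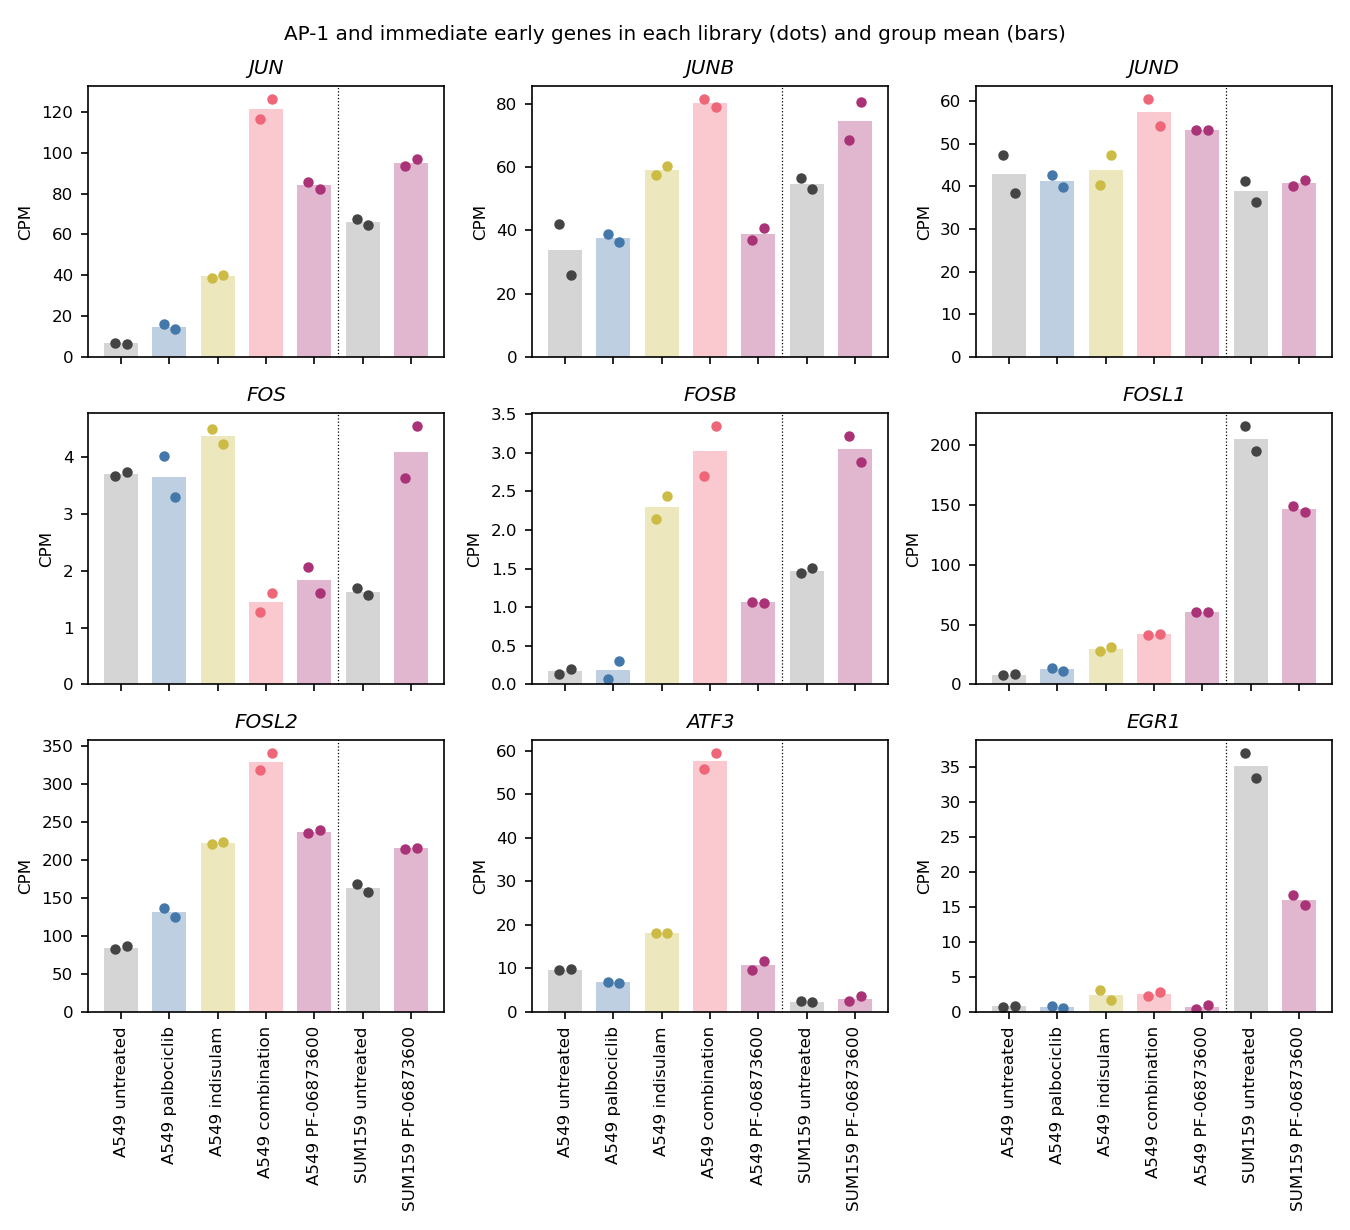
Level of each of the 9 genes in CPM (y axis, linear, from 0) in the 7 groups (x axis), with dots for the 2 libraries and bars for their mean; the dotted line parts A549 from SUM159. JUN reaches 121.4 CPM on average with the A549 combination from 6.84 CPM untreated, while FOS falls to 1.44 CPM and JUND stays between 38.9 and 57.4 CPM in all groups.

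Palbociclib alone raised 3 of these 9 genes in A549 and lowered 1. JUN rose 2.19-fold (log2 fold change 1.12, SE 0.12, adjusted p = 2.135e-05), FOSL2 rose 1.56-fold (log2 0.64, SE 0.06, adjusted p = 1.087e-05) and FOSL1 rose 1.53-fold (log2 0.60, SE 0.12, adjusted p = 0.00414). ATF3 fell by 0.53 on the log2 scale (SE 0.13, adjusted p = 0.0133). These and all p-values below came from edgeR's quasi-likelihood test over all genes with Benjamini-Hochberg adjustment. That made 3 of 9 members higher, where 8.30% of the 15780 genes tested were higher, and 1 lower, where 7.40% were lower. The median log2 change was 0.15 over the members and −0.01 over all genes. FOSL1 and ATF3 lost their calls, but not their direction, with 1 palbociclib library fewer. Without replicate 1 FOSL1 was at 0.488 (adjusted p = 0.0501) and ATF3 at −0.543 (0.0565), and without replicate 2 ATF3 was at −0.505 (0.0947). JUNB was called higher once untreated replicate 1 was left out (log2 0.53, adjusted p = 0.000506). With 2 libraries against 2, an exact permutation test of a single gene cannot go below p = 0.33, so the calls depend on the variance model shared across genes.

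Indisulam alone raised most of them. JUN rose 5.78-fold (log2 2.53, SE 0.11, adjusted p = 2.692e-10), FOSL1 3.60-fold (log2 1.85, SE 0.11, adjusted p = 8.461e-09) and FOSL2 2.64-fold (log2 1.40, SE 0.06, adjusted p = 4.786e-10). ATF3 rose 1.87-fold and JUNB 1.74-fold, with adjusted p of 1.433e-05 and 0.00045. EGR1 rose 3.17-fold from its low level (log2 1.65, SE 0.41, adjusted p = 0.004781), a call that was lost without indisulam replicate 1 (adjusted p = 0.0821). FOSB went from 5 counts in the 2 untreated libraries to 68, a ratio of 13.7 with a 95% counting interval of 5.57 to 43.4 (edgeR adjusted p = 1.332e-05). FOS (log2 0.24, SE 0.19, adjusted p = 0.342) and JUND (log2 0.04, SE 0.10, adjusted p = 0.798) did not pass the test, although the FOS libraries did not overlap, and the JUND value was below 0 with trimmed-mean (−0.0424) or DESeq2 scaling (−0.0346). So 7 of 9 were higher, against 28.0% of all genes, and 0 were lower, against 17.5% (also 0 at an unadjusted p under 0.05 and 0 by DESeq2). The median log2 change was 1.40 over the members and 0.08 over all genes.

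The combination of palbociclib and indisulam changed all 9 genes against untreated A549. JUN rose 17.8-fold (log2 4.15, SE 0.10, adjusted p = 1.201e-13), ATF3 5.95-fold (log2 2.57, SE 0.10, adjusted p = 1.993e-11), FOSL1 5.13-fold (log2 2.36, SE 0.11, adjusted p = 9.245e-11) and FOSL2 3.92-fold (log2 1.97, SE 0.06, adjusted p = 2.415e-12). JUNB rose 2.36-fold, EGR1 3.45-fold and JUND 1.34-fold, with adjusted p of 2.524e-06, 0.001391 and 0.002109. FOSB had 90 counts against 5, a ratio of 18.0 with a counting interval of 7.45 to 56.9. FOS went the other way and fell by 1.35 on the log2 scale (SE 0.24, adjusted p = 0.0001611), 2.57-fold lower. The counts were 8 of 9 higher, against 35.1% of all genes, and 1 of 9 lower, against 30.0%, and the same counts were found when any single library was left out. The median log2 change was 1.97 over the members and 0.05 over all genes.

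Adding indisulam to palbociclib gave the same split of 8 higher and 1 lower, where 33.5% of all genes were higher and 26.9% lower. JUN rose 8.12-fold over palbociclib alone (log2 3.03, SE 0.09, adjusted p = 1.582e-12) and ATF3 8.55-fold (log2 3.10, SE 0.11, adjusted p = 8.104e-12). FOS fell by 1.32 (SE 0.24, adjusted p = 0.0002368). Adding palbociclib to indisulam left 6 of 9 higher (22.0% of all genes) and 1 lower (23.9%). ATF3 rose 3.18-fold over indisulam alone (log2 1.67, SE 0.09, adjusted p = 2.974e-09), JUN 3.08-fold (log2 1.62, SE 0.08, adjusted p = 6.632e-10), FOSL2 1.49-fold and FOSL1 1.43-fold (adjusted p = 2.449e-06 and 0.000311). FOS fell by 1.58 (SE 0.23, adjusted p = 6.005e-05). FOSB (log2 0.40, SE 0.25, adjusted p = 0.216) and EGR1 (log2 0.13, SE 0.32, adjusted p = 0.769) did not pass the test. The smaller calls of JUNB (log2 0.44, adjusted p = 0.015) and JUND (log2 0.39, adjusted p = 0.006249) were lost in 3 and 2 of the 4 leave-one-out fits. JUNB had an adjusted p of 0.0862 without indisulam replicate 1, and 0.0898 and 0.063 without combination replicates 1 and 2. JUND had 0.0878 without indisulam replicate 1 and 0.0822 without combination replicate 1.

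Whether the combination departed from the added log2 changes of palbociclib and indisulam was tested by the interaction term. ATF3 departed most, with a sum of 0.38 and a combined change of 2.57 (interaction 2.19, SE 0.16, adjusted p = 1.845e-07). FOS departed the other way, with a sum of 0.21 and a combined change of −1.35 (interaction −1.55, SE 0.31, adjusted p = 0.001796). For JUN the sum was 3.65 and the combined change 4.15 (interaction 0.50, SE 0.15, adjusted p = 0.02212), and for JUND the sum was −0.02 and the combined change 0.42 (interaction 0.44, SE 0.15, adjusted p = 0.03999). FOSL2 lay close to its sum (2.04 against 1.97, interaction −0.07, SE 0.09, adjusted p = 0.623), as did FOSL1 (2.45 against 2.36, interaction −0.09, SE 0.15, adjusted p = 0.715). FOSB, JUNB and EGR1 also did not pass the test. This made 3 of 9 higher than the sum, where 10.7% of all genes were, and 1 lower, where 14.5% were.

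The interactions of JUN and JUND lost their calls in some fits with 1 library fewer, with values of 0.372 to 0.467 for JUN and 0.279 to 0.514 for JUND. JUN lost its call without untreated replicate 1 (adjusted p = 0.0818), palbociclib replicate 2 (0.118), indisulam replicate 1 (0.0624) or combination replicate 2 (0.0768). JUND lost it without untreated replicate 1 (0.115), without palbociclib replicate 1 (0.0571) or 2 (0.13), without indisulam replicate 1 (0.166), and without combination replicate 1 (0.17) or 2 (0.0508). JUNB gained one without untreated replicate 2 (0.61, adjusted p = 0.000236). The interactions of ATF3 and FOS held in all 8 such fits.

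**Figure D2:**
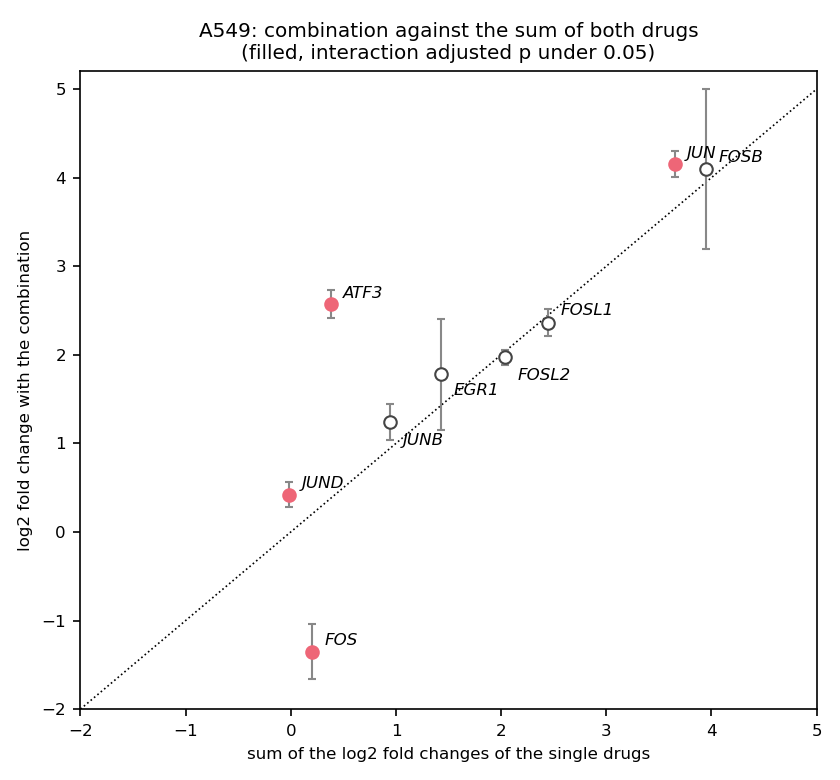
Log2 fold change with the A549 combination (y axis) against the sum of the log2 fold changes of palbociclib and of indisulam (x axis), one point per gene, with vertical bars for the standard error of the interaction and the dotted line for equality; filled points have an interaction adjusted p under 0.05. ATF3 sits at 0.38 and 2.57, far above the line, FOS at 0.21 and −1.35, below it, and FOSL1 and FOSL2 on it. The FOSB position depends on a count of 5 over the untreated libraries.

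PF-06873600 for 7 days raised JUN, FOSL1 and FOSL2 in A549 but left the mean levels of ATF3, EGR1 and JUNB near those of untreated cells. JUN rose 12.3-fold (log2 3.62, SE 0.10, adjusted p = 1.908e-12), FOSL1 7.37-fold (log2 2.88, SE 0.10, adjusted p = 2.335e-11) and FOSL2 2.82-fold (log2 1.5, SE 0.06, adjusted p = 1.013e-10). FOSB had 31 counts against 5, a ratio of 6.30 with a counting interval of 2.43 to 20.8. FOS fell by 1.02 (SE 0.23, adjusted p = 0.001441), 2.02-fold lower. ATF3 (log2 0.15, SE 0.12, adjusted p = 0.317), EGR1 (log2 −0.12, SE 0.53, adjusted p = 0.865) and JUNB (log2 0.20, SE 0.15, adjusted p = 0.283) did not pass the test. JUND passed it at 1.24-fold (log2 0.31, adjusted p = 0.01738) but not without untreated replicate 2 (0.142) or PF-06873600 replicate 1 (0.0706) or 2 (0.0759), and JUNB passed it without untreated replicate 1 (log2 0.58, adjusted p = 3.26e-05). The result was 5 of 9 higher, against 28.5% of all genes, and 1 lower, against 27.8%, with a median log2 change of 0.31 over the members and −0.01 over all genes. The A549 comparisons share their untreated libraries, and PF-06873600 was given for fewer days than the other drugs, so its values and those of the combination stand side by side here without a test between them.

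In SUM159 the same dose and time of PF-06873600 changed 7 of the 9 genes, a count near the share over all genes, with FOS higher and FOSL1 lower. FOS rose 2.51-fold (log2 1.33, SE 0.24, adjusted p = 0.0001267) and FOSB 2.07-fold (log2 1.04, SE 0.25, adjusted p = 0.001458). JUN rose 1.44-fold (log2 0.52, SE 0.06, adjusted p = 9.664e-07), JUNB 1.36-fold (log2 0.45, SE 0.08, adjusted p = 7.795e-05) and FOSL2 1.32-fold (log2 0.40, SE 0.05, adjusted p = 1.064e-05). EGR1 fell by 1.14 (SE 0.09, adjusted p = 2.532e-08), 2.2-fold lower, and FOSL1 fell by 0.49 (SE 0.06, adjusted p = 3.213e-06), 1.40-fold lower. JUND (log2 0.07, SE 0.08, adjusted p = 0.418) and ATF3 (log2 0.39, SE 0.25, adjusted p = 0.177) did not pass the test. That made 5 of 9 higher, against 38.1% of the 15055 genes tested, and 2 lower, against 35.6%. The median log2 change was 0.40 over the members and 0.02 over all genes, and the counts were the same without any single library.

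**Figure D3:**
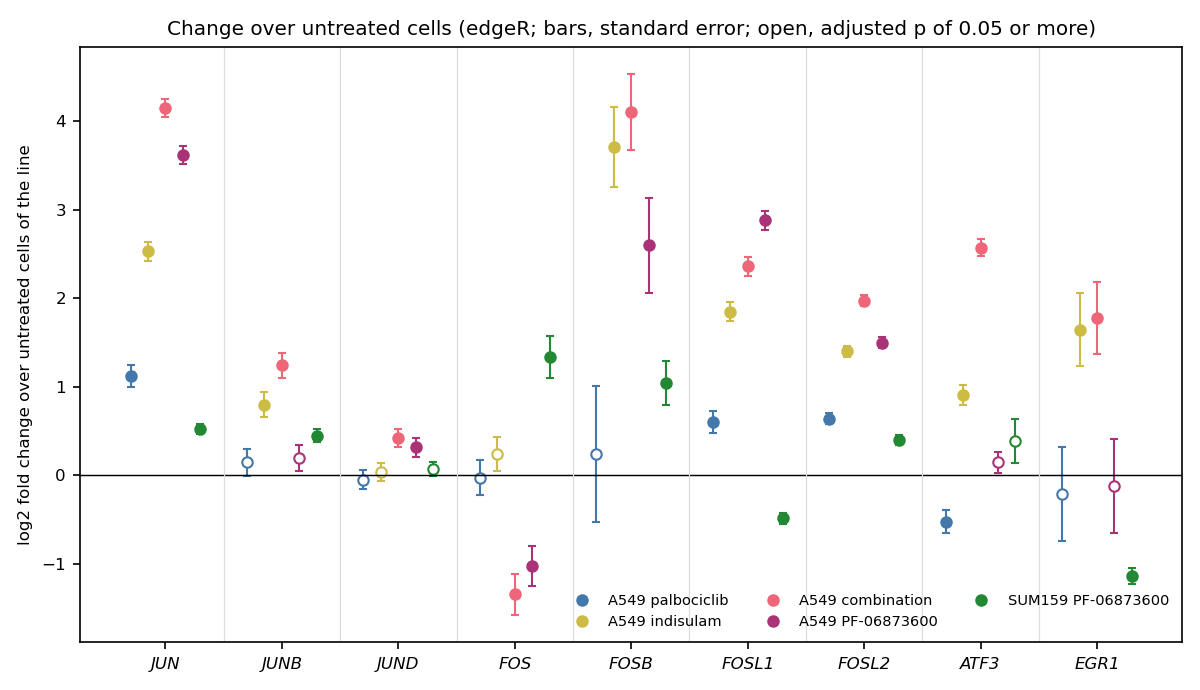
Log2 fold change over untreated cells of the same line (y axis) for each of the 9 genes (x axis) under the 5 treatments, with bars for the standard error; filled points have an edgeR adjusted p under 0.05 and open points do not. JUN lies at 1.12, 2.53, 4.15 and 3.62 in A549 and at 0.52 in SUM159, and FOS lies on both sides of 0, from −1.35 to 1.33, as do FOSL1, ATF3 and EGR1 among their called changes. The A549 points of FOSB depend on 5 untreated counts.

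The response to PF-06873600 differed between the lines for 5 of the 9 genes by the line by drug interaction. It was lower in SUM159 than in A549 for FOSL1 (difference −3.37 log2, SE 0.12, adjusted p = 7.894e-14), JUN (−3.09, SE 0.12, adjusted p = 2.131e-13) and FOSL2 (−1.10, SE 0.08, adjusted p = 2.107e-09), and higher for FOS (2.36, SE 0.32, adjusted p = 4.19e-06). For FOSB the difference was −1.56 (SE 0.61, adjusted p = 0.03727), which rested on the 5 untreated A549 counts. It was lost with DESeq2 (adjusted p = 0.15), without a filter on low counts (0.0607) and without 7 of the 8 libraries in turn, namely untreated A549 replicate 1 (0.163) or 2 (0.0763), A549 PF-06873600 replicate 1 (0.0684) or 2 (0.0723), untreated SUM159 replicate 1 (0.0575) or 2 (0.0665) and SUM159 PF-06873600 replicate 2 (0.0716). Thus 1 of 9 was higher, where 25.8% of 17279 genes were, and 4 lower, where 27.2% were. JUNB, JUND, ATF3 and EGR1 did not pass the test, although leaving out 1 library gave a call for JUNB (without untreated A549 replicate 2, 0.56, adjusted p = 0.000499), for JUND (without untreated A549 replicate 1, −0.40, adjusted p = 0.0122) and for EGR1 (without A549 PF-06873600 replicate 1, −1.46, adjusted p = 0.0371).

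The untreated lines differed in all of these genes except JUND. SUM159 held 47.7 times the EGR1 of A549 (log2 5.56, SE 0.23, adjusted p = 4.068e-14), 25.1 times the FOSL1 (log2 4.65, SE 0.09, adjusted p = 5.565e-19) and 9.67 times the JUN (log2 3.27, SE 0.10, adjusted p = 1.743e-16). FOSL2 was 1.94-fold and JUNB 1.61-fold higher (adjusted p = 3.017e-11 and 0.0001368), and FOSB had 48 counts against 5, a ratio of 8.76 with a counting interval of 3.51 to 28.2. ATF3 was 4.21-fold lower in SUM159 (log2 −2.07, SE 0.18, adjusted p = 2.422e-09) and FOS 2.28-fold lower (log2 −1.18, SE 0.23, adjusted p = 0.000128). JUND differed by −0.14 (SE 0.10, adjusted p = 0.217) and was called lower with trimmed-mean scaling (−0.242, adjusted p = 0.0325) and without untreated A549 replicate 2 (−0.279, adjusted p = 0.0148). Of the 9 genes 6 were higher, against 41.9% of all genes, and 2 lower, against 36.8%. The lines also grew in different media, with insulin and hydrocortisone in that of SUM159, so line and medium cannot be told apart.

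The make-up of the 2 families was compared per kilobase of exon (CPM per kb, which scales each level by the length of the gene). The length was that of all annotated exons of a gene, whether or not these cells use them, so shares between genes are approximate. Among the JUN genes of untreated A549, JUND gave 52.5% of the mRNA, JUNB 43.0% and JUN 4.51%. The share of JUN was 8.94% with palbociclib, 16.6% with indisulam, 31.3% with the combination and 32.2% with PF-06873600, while that of JUND was 27.8% with the combination. The summed level of the JUN genes was 42.6 ± 9.54 CPM per kb (SD, n = 2) in untreated A549 and 107 ± 1.40 with the combination. In SUM159 the share of JUN was 26.7% untreated and 29.8% with PF-06873600.

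Among the FOS genes, FOSL1 and FOSL2 together carried nearly all of the mRNA in each group. FOSL2 gave 68.0% in untreated A549 and 66.4% with the combination, and FOSL1 gave 25.1% and 32.1%. With PF-06873600 FOSL1 reached 48.5% of the family in A549. SUM159 was a FOSL1 line by this measure, at 82.2% untreated and 70.9% with PF-06873600. FOS itself made up 6.74% in untreated A549, 0.653% with the combination and 0.386% in untreated SUM159, and FOSB stayed below 1% in every group. The summed level was 17.3 ± 0.806 CPM per kb in untreated A549, 69.2 ± 2.51 with the combination and 65.8 ± 0.296 with PF-06873600, and in SUM159 it was 132.4 ± 8.81 untreated and 109.6 ± 1.57 with the drug (SD, n = 2 each).

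**Figure D4:**
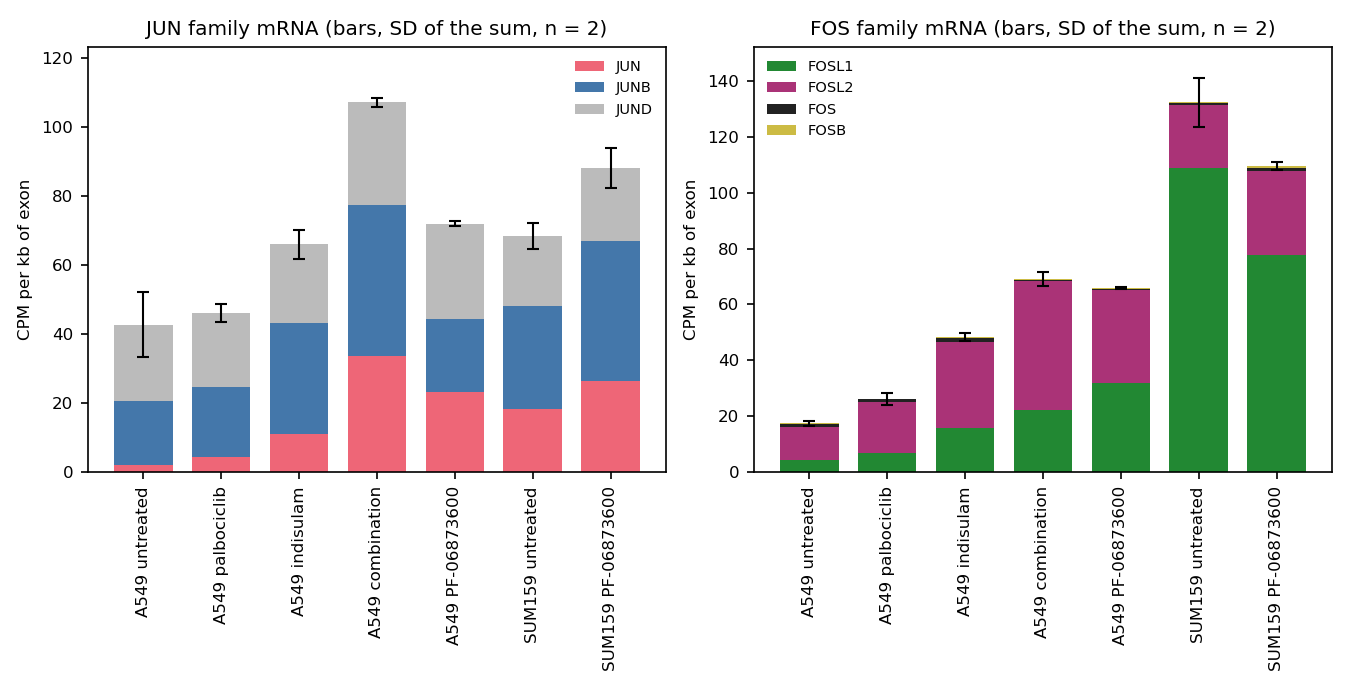
Level in CPM per kb of exon (y axis, stacked from 0) of the JUN genes (left) and of the FOS genes (right) in the 7 groups (x axis), with bars for the SD of the sum over 2 libraries. The JUN sum goes from 42.6 to 107 CPM per kb between untreated and combination-treated A549, and FOSL1 fills 82.2% of the FOS family in untreated SUM159.

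Genes known as AP-1 targets, among them secreted proteases and inflammatory mediators, mostly rose with treatment. JUN was higher in every comparison with untreated cells, so whether the list follows JUN could not be tested. The list was chosen with earlier results of these data known. Of 25 listed, 21 were tested in A549 (not CSF2, IL1A, MMP3 and MMP13), and 12, 17, 19 and 20 were higher with palbociclib, indisulam, the combination and PF-06873600, where 8.30%, 28.0%, 35.1% and 28.5% of all genes were higher. None was lower in these 4 comparisons by edgeR, by DESeq2 or at an unadjusted p under 0.05. The palbociclib count of 12 was 7 without untreated replicate 2. The medians of the list were 0.51, 1.22, 2.25 and 1.84 log2. CCL2, a monocyte chemokine, went from 0.739 to 49.1 CPM with the combination (log2 6.04, SE 0.16) and to 14.9 CPM with PF-06873600 (log2 4.32, SE 0.19). CXCL8, a neutrophil chemokine, went from 6.66 to 74.4 CPM with PF-06873600 (log2 3.48, SE 0.09). In SUM159 21 of 23 tested (not IL11 and MMP10) were higher and 2 lower, where 38.1% and 35.6% of all genes were, with a median of 1.78. CSF2, which encodes GM-CSF, went from 0.459 to 43.6 CPM (log2 6.54, SE 0.16), IL1B from 0.369 to 23.9 CPM (log2 5.99, SE 0.20), and the collagenase MMP13 from 0 and 2 counts to 12.8 CPM. HMOX1, a heme-degrading enzyme, was among the lower genes (log2 −0.76, SE 0.06), and 1 gene was lower without SUM159 PF-06873600 replicate 1 and 1 without replicate 2.

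Other immediate early genes rose and fell side by side. With the combination 14 of 23 tested in A549 (not DUSP2, EGR2, EGR3 and EGR4) were higher and 4 lower, where 35.1% and 30.0% of all genes were, with a median of 0.42. CCN1, a matrix protein, rose from 8.58 to 69.5 CPM (log2 3.02, SE 0.09), the kinase gene SGK1 from 5.02 to 23.4 CPM (log2 2.22, SE 0.12) and the antiproliferative gene BTG2 from 17.6 to 75.6 CPM (log2 2.10, SE 0.07). NR4A1, an orphan nuclear receptor, fell by 1.21 (SE 0.12) and KLF4 by 0.38 (SE 0.12). In SUM159 with PF-06873600 9 of 24 tested were higher and 11 lower, the first near the share over all genes (38.1% higher and 35.6% lower), with a median of −0.01. BTG2 rose there too (log2 1.88, SE 0.15), while NR4A1 fell by 1.38 (SE 0.15) and KLF4 by 1.16 (SE 0.10). CCN2, a relative of CCN1, fell by 1.31 (SE 0.06), from 238.7 to 96.5 CPM.

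Other zipper partners and the kinases upstream moved both ways. Of 11 partners tested in A549 (not BATF), 3 were higher and 6 lower with the combination, where 35.1% and 30.0% of all genes were, with a median of −0.28. The small MAF gene MAFK rose from 31.1 to 197.1 CPM (log2 2.66, SE 0.11), and ATF4 and DDIT3, stress response factors, fell by 0.98 (SE 0.06) and 0.94 (SE 0.10). JDP2, a repressor that pairs with JUN, fell by 0.87 in A549 with PF-06873600 (SE 0.09) and rose in SUM159 (log2 1.00, SE 0.07). Of 26 upstream kinases and factors, 14 were higher and 4 lower with the combination (35.1% and 30.0% of all genes), with a median of 0.24. MRTFA, a coactivator of SRF, rose from 27.4 to 88.6 CPM (log2 1.69, SE 0.11) and ELK3 from 103 to 262 CPM (log2 1.35, SE 0.07), while the JNK pathway kinase MAP3K5 fell by 1.07 (SE 0.14). In SUM159 with PF-06873600 8 were higher and 14 lower (38.1% and 35.6% of all genes), and NRAS and HRAS fell by 1.21 (SE 0.06) and 1.12 (SE 0.07). The 8 became 5 without SUM159 PF-06873600 replicate 2.

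Corepressors and targets of EGR1 and the ligase subunits that degrade JUN and FOS proteins completed the lists. With the combination 6 of 10 EGR1-related genes were higher and 2 lower, where 35.1% and 30.0% of all genes were. PTGES, the prostaglandin E synthase, rose from 26.6 to 104.1 CPM (log2 1.97, SE 0.07) and F3, tissue factor, from 7.64 to 23.7 CPM (log2 1.64, SE 0.12). In SUM159, where EGR1 fell with PF-06873600, 4 of 10 were higher and 3 lower, near the shares over all genes (38.1% and 35.6%). FN1, fibronectin, rose (log2 2.13, SE 0.12), PDGFA fell by 0.90 (SE 0.08), and the corepressor NAB2 fell by 0.49 (SE 0.09). Of the 4 turnover genes 2 were higher with the combination, FBXW7 (log2 0.39, SE 0.10) and ITCH (log2 0.34, SE 0.08), where 35.1% of all genes were. None, 0 of 4, was lower, where 30.0% were (0 also by DESeq2 and at an unadjusted p under 0.05), and DESeq2 called 1 of the 4 higher. A list of 4 genes is too short to set apart from these shares.

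Likeness of pattern was described by Pearson's r of log2 CPM across the 10 A549 libraries, which share groups and duplicates, over 11056 genes, and carries no p. JUN was most like VCL, the focal adhesion protein vinculin (r = 0.998), then DUSP8, a phosphatase of JNK and p38 (0.998). FOSL1 was most like the protease gene MMP7 (0.998), FOSL2 like IFFO2 (0.999), and ATF3 like RNF103 (0.989). High values were common and do not single out a partner. An r of at least 0.9 was reached by 955 genes with JUN, 871 with FOSL2, 543 with FOSL1 and 404 with ATF3. JUND had no gene above 0.967. Among the members, JUN went with FOSL2 (0.981) and FOSL1 (0.96), ATF3 with JUNB (0.888), and FOS had a negative r with each of the other 8, from −0.16 with EGR1 to −0.862 with JUND.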

How the data were processed

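Stranded mRNA libraries of A549 and SUM159 were sequenced, 2 for each of 7 groups. Per the submitters' processing notes the reads were aligned to GRCh38 with HISAT2 2.2.1 and counted with HTSeq, and the annotation release and the use of strand were not given in the sources used here. The authors deposited raw counts per gene for each library, with 60683 gene identifiers, of which 60370 had a symbol in GENCODE 44. The 9 summary lines of each table (unmapped, ambiguous and other reads, 29.1% to 36.0% of all lines) were left out of totals and tests.

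Counts were scaled by library total, as in the study, and tested with edgeR 4.0.16 (R 4.3.3; filterByExpr, glmQLFit, glmQLFTest) in a model of the 10 A549 libraries (15780 genes), of the 4 SUM159 libraries (15055) or of all 14 (17279), with Benjamini-Hochberg adjustment over all genes tested and a threshold of 0.05. Levels are CPM. Standard errors were obtained by dividing each fitted change by the root of its F statistic, and fold changes are ratios of group means. Counting intervals (95%) of count ratios were exact. The code was tested on simulated data. The 9 genes and the other lists were chosen with earlier results of these data known. Named from each list were up to 3 genes higher and 3 lower with the largest change among those called, provided the higher group averaged 10 CPM or more, in the 3 comparisons of the combination and of PF-06873600 with untreated cells, and the 3 genes most like a member came from genes with a mean of at least 5 CPM, with a prior count of 2. Alternatives were DESeq2 1.42.0, trimmed-mean scaling, testing every gene without a count filter or only genes averaging 50 counts or more, a replicate block, the compared groups alone, and leaving out each library. Values of some listed genes that this rule would name are not reported here.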

Additional observations from a re-analysis of the deposited data

Results flagged for a closer look

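The response to PF-06873600 differed between SUM159 and A549, by the line by drug interaction in edgeR, for 5 of the 9 genes. This count was near the share over all 17279 genes tested, of which 25.8% were higher and 27.2% lower. The differences, SUM159 minus A549 on the log2 scale, were 2.355 for FOS, −1.561 for FOSB, −3.367 for FOSL1, −1.096 for FOSL2 and −3.094 for JUN. FOS rose in SUM159 and fell in A549, FOSL1 did the reverse, and FOSB, FOSL2 and JUN rose in both lines but less in SUM159. Over the alternatives run, the adjusted p ranged up to 7.99e-05 for FOS, 4.95e-12 for FOSL1, 7.54e-08 for FOSL2 and 8.93e-12 for JUN, and from 0.0451 to 0.163 for FOSB.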

How the results depend on the processing

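Of 943 recomputed values of single members, 874 kept their direction and their side of the threshold, 33 lost a call, 8 gained one and 28 changed sign, none of them called in either fit. With a mean of at least 50 counts FOS was no longer tested in the models of A549 and of all libraries. The members called lower were therefore 0.0 for the combination against untreated, palbociclib or indisulam, for the interaction and for PF-06873600 in A549. They were 1.0 between the untreated lines, and those called higher in the line difference were 0.0. FOSB was not tested in any model under this filter, nor was EGR1 in A549 or ATF3 in SUM159, so their calls could not be counted. With the compared groups alone, palbociclib gave 0.0 lower, with an adjusted p of 0.077 for ATF3 and 0.0556 for FOSL1. Trimmed-mean and DESeq2 scaling put JUND with indisulam at −0.0424 and −0.0346, and moved the median of all genes by less than 0.1 (at most 0.093). Leaving out single libraries gave 2.0 to 4.0 members higher and 0.0 to 1.0 lower with palbociclib, 6.0 to 7.0 higher with indisulam, 4.0 to 6.0 higher for the combination against indisulam, 1.0 to 4.0 higher in the interaction, 4.0 to 6.0 higher with PF-06873600 in A549, 1.0 to 2.0 higher and 3.0 to 4.0 lower in the line difference, and 2.0 to 3.0 lower between the untreated lines. Signs changed only in values that were not called. With palbociclib FOS ran from −0.168 to 0.114, FOSB from −1.1 to 0.828, JUNB from −0.163 to 0.53, JUND from −0.194 to 0.104 and EGR1 from −0.592 to 0.139, and with indisulam JUND ran from −0.105 to 0.193. For the combination against indisulam EGR1 ran from −0.248 to 0.629. In the interaction FOSB ran from −0.428 to 1.49, FOSL1 from −0.212 to 0.0234, JUNB from −0.0879 to 0.605 and EGR1 from −0.0355 to 0.841. With PF-06873600 in A549 JUNB ran from −0.109 to 0.584, ATF3 from −0.0181 to 0.277 and EGR1 from −0.936 to 0.322, and in SUM159 JUND from −0.0173 to 0.165. In the line difference JUNB ran from −0.135 to 0.558 and ATF3 from −0.0896 to 0.474, and between the untreated lines JUND from −0.279 to 0.02. The cause of these changes was not tested. Counting error limits FOSB in untreated and palbociclib-treated A549 and EGR1 in A549.

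The labels give the duplicates numbers but no shared batch. Same-numbered libraries correlated by −0.219 to 0.168 in their deviations from the group means. The value was 0.168 for untreated with indisulam-treated A549, and −0.219 and −0.181 for palbociclib with these 2 groups. Whether libraries of different groups shared a batch was not tested. A replicate block left all 90 member values on their side of the threshold, for example 8.0 higher and 1.0 lower with the combination against untreated. With the numbers of the palbociclib libraries crossed, an alternative chosen after seeing the data, all 27 member values also stayed on their side.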
